A study of Mus musculus with 13 samples.

Results

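The genes described here are 10 genes of antigen presentation on major histocompatibility complex (MHC) class II and of the dendritic cell lineage, namely H2-Aa, H2-Ab1, H2-Eb1, H2-DMa, H2-DMb1, Cd74, Ciita, Flt3, Irf8 and Zbtb46. They were taken by symbol from a table of read counts that listed 24421 genes, and all 10 were present and passed the filter on low counts. The 13 RNA libraries came from female MMTV-HER2/Neu mice of an FVB/N-TgN strain that carries the (MMTV-HER2/neu) 202Mul/J transgene, with the genotype entered as wild type. In these mice the mouse mammary tumor virus promoter drives rat HER2/Neu in mammary epithelium, so that the cancer-free glands carried the transgene too. The 5 groups were cancer-free mammary glands of untreated mice (n = 2), primary tumors of untreated mice (n = 3), primary tumors of mice given stavudine (STV, n = 3), recurrent tumors that grew back after a complete response to 17-DMAG (n = 3), and tumors that recurred after 17-DMAG under STV (n = 2). STV, a nucleoside inhibitor of reverse transcriptase, was supplied in the drinking water at 1 mg/mL, about 200 mg/kg per day. It was started at 2 months of age or at the appearance of primary tumors. The paper describes the primary STV tumors as having developed in mice already on STV. Which start applied to the recurrent tumors under STV was not stated there. 17-DMAG, an inhibitor of the chaperone HSP90, was injected at 20 mg/kg 3 times per week. The paper states that injections went on while tumors regrew, up to the size at which mice were killed. Relapse and continued 17-DMAG treatment therefore cannot be told apart in the recurrent tumors. The ages at which tissue was collected were not given in the sources used here. Each tumor library came from an individual tumor, and whether tumors of a group came from separate mice was not stated, so p-values measure the spread between these samples.

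MHC class II molecules display peptides from endocytosed proteins to CD4+ T cells. Their alpha and beta chains assemble with the invariant chain Cd74, which occupies the groove until the H2-DM heterodimer exchanges its remnant for a peptide. Dendritic cells, macrophages and B cells carry these molecules constitutively, interferon gamma induces them in many other cells, and the transactivator Ciita is required for transcription of nearly all of their genes. In FVB mice, which carry the H2q haplotype, no E alpha protein is made, and the reference genome used for counting is that of another haplotype, so levels of different class II genes are compared here with that limit.

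The upstream sequences of 3 class II members are shown first because they share an arrangement of letters that the other members' promoters searched lack. Of the 10 genes, H2-Aa, H2-Eb1, H2-DMb1, H2-DMa, Irf8, Flt3 and Zbtb46 had entries in the RefSeq promoter set (GRCm38.p6, 250 bases before to 50 after a start site), and H2-Ab1, Cd74 and Ciita did not. The letters GNAACT, part of the X box of class II promoters, followed after 15 to 45 bases by TGATTGG, the Y box bound by NF-Y, were searched on both strands, and the 2 stretches do not overlap. That pair was found in 92 of 32851 promoters (0.280%), and TGATTGG by itself in 7.82%. The pattern was written down after these sequences had been read, and a match is a description of letters only. The 120 bases before the RefSeq start site are given 5′ to 3′, with both stretches in capitals. GENCODE starts H2-DMb1 at 34153072, so nearly all of its printed bases lie inside the gene in that annotation.
H2-Aa, chr17:34287824-34287943, minus strand: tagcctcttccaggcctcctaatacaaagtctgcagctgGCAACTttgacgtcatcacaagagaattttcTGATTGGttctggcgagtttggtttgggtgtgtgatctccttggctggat
H2-Eb1, chr17:34305747-34305866, plus strand: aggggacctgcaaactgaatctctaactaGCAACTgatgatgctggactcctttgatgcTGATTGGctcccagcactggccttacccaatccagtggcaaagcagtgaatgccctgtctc
H2-DMb1, chr17:34153071-34153190, plus strand: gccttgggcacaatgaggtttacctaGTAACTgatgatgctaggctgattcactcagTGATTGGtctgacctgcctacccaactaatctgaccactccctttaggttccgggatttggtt
Counted from the start site, the first stretch began at −81 in H2-Aa, −91 in H2-Eb1 and −94 in H2-DMb1, and the TGATTGG stretch at −50, −61 and −63. The spacing between both was 25 bases in H2-Aa and H2-DMb1 and 24 in H2-Eb1. In Irf8, TGATTGG was present at −123 of 1 of its 2 start sites without the partner, and neither promoter of H2-DMa nor those of Flt3 and Zbtb46 held it. H2-Aa and H2-Eb1 on the one hand and H2-DMb1 on the other shared this arrangement and, as described below, differed in how their RNA varied.

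Library totals ran from 39921388 to 56887708 counts, and the lower limit used for detection, 3 counts, came to 0.0587 to 0.107 CPM. CPM are counts scaled to the library total times a TMM normalization factor. That factor was 0.493 for gland 2 and 0.999 to 1.12 for the other libraries. Both glands stood apart from each other. Gland 1 held B cell markers at a summed 291 CPM against 5.92 in gland 2 and 3.29 to 7.89 in the tumors, and T cell markers at 144 CPM against 8.81 in gland 2 and 4.97 to 11.7 in the tumors. In gland 2, milk protein genes summed to 537113 CPM against 21070 in gland 1 and 4435 to 19695 in the tumors. Comparisons with the glands are therefore given with each gland left out in turn, for the members and for the gene lists.

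**Figure D1:**
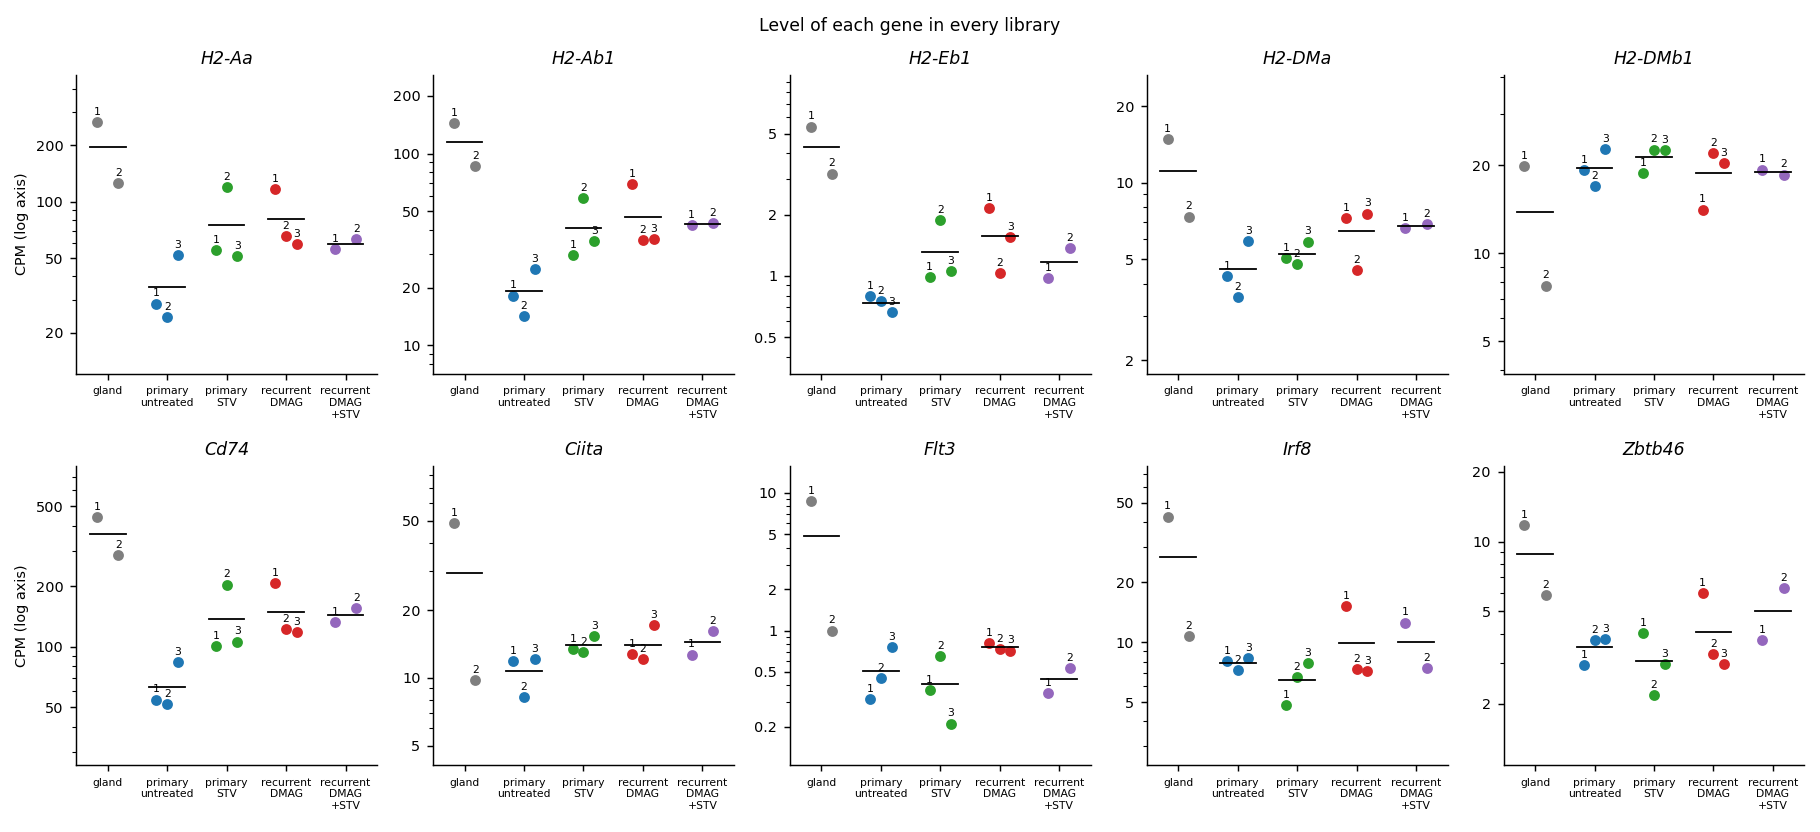
CPM of the 10 genes (vertical log axes) in the 13 libraries by group (horizontal axis); points are libraries numbered by replicate and lines are group means. For Cd74, H2-Ab1 and H2-Eb1 the 3 primary untreated tumors lie below all 8 other tumors, whereas H2-DMb1 stays between 14.1 and 22.7 CPM in every tumor. The share of all genes that separate in this way was not counted.

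Levels differed widely between the members. Per kilobase of annotated exon, the mean over the 11 tumors was 72.3 ± 30.8 CPM (SD) for Cd74, 16.6 ± 7.96 for H2-Aa, 14.4 ± 6.36 for H2-Ab1 and 11.8 ± 1.61 for H2-DMb1. H2-DMa followed at 1.64 ± 0.382, Ciita at 1.38 ± 0.254, Irf8 at 1.19 ± 0.409, H2-Eb1 at 0.618 ± 0.247, Zbtb46 at 0.448 ± 0.150 and Flt3 at 0.0869 ± 0.0338 CPM per kilobase. The ranges over the tumors overlapped between all neighbours in this order from Cd74 to H2-DMb1 and from H2-DMa to Zbtb46. RNA counted as H2-Aa and H2-Ab1 thus exceeded RNA counted as H2-Eb1 by far, on a reference of another haplotype. Whether the strain's haplotype sets the low H2-Eb1 level was not tested. Flt3 was the rarest transcript at 10 to 38 counts per tumor. Counts of some members can include reads of others, since the strand setting of the counting was not stated: exons of H2-DMa overlap Brd2 and those of Ciita overlap Dexi on the opposite strand, and H2-DMb1 has the close paralog H2-DMb2.

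H2-Aa (chr17:34282744-34287823, minus strand, GRCm38) encodes the alpha chain of the class II molecule A. It had 265 and 125 CPM in the glands and 28.6, 24.2 and 52.2 CPM in the primary untreated tumors. It had 55.2, 120 and 51.4 CPM in the primary STV tumors, 116, 65.5 and 59.5 after 17-DMAG alone, and 55.8 and 63.3 after 17-DMAG with STV. Every tumor lay below both glands, the lowest 2 values of all were untreated tumors, and STV tumor 2 and 17-DMAG tumor 1 were the highest tumors.

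H2-Ab1 (chr17:34257689-34269419, plus strand), which encodes the beta chain that pairs with it, repeated this order. It had 144 and 86.2 CPM in the glands and 18.2, 14.2 and 25.1 CPM in the primary untreated tumors. It had 29.5, 58.8 and 35.0 CPM in the primary STV tumors, 69.3, 35.4 and 36.0 after 17-DMAG alone, and 42.6 and 43.5 after 17-DMAG with STV. All 8 tumors of the last 3 groups exceeded the highest untreated tumor. The ratio of H2-Aa to H2-Ab1 counts stayed between 1.31 and 2.08 over the tumors and was 1.84 and 1.46 in the glands, while each gene alone spanned more than 2 on the log2 CPM scale over the tumors (2.30 and 2.28).

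Cd74 (chromosome 18, 60803848 to 60812652), the invariant chain, was the most abundant member. It had 440 and 286 CPM in the glands and 54.5, 51.6 and 83.7 CPM in the primary untreated tumors. It had 101, 203 and 106 CPM in the primary STV tumors, 207, 122 and 118 after 17-DMAG alone, and 133 and 155 after 17-DMAG with STV. Again the untreated tumors lay below all other tumors, and STV tumor 2 and 17-DMAG tumor 1 were close to each other at the top. Cd74 counts were 1.605 to 2.45 times those of H2-Aa in the tumors.

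H2-Eb1 (chr17:34305867-34316674, plus strand), the beta chain of the class II molecule E, was rare, with 33 to 93 counts per tumor. It had 5.41 and 3.18 CPM in the glands and 0.796, 0.754 and 0.662 CPM in the primary untreated tumors. It had 0.990, 1.87 and 1.05 CPM in the primary STV tumors, 2.15, 1.03 and 1.55 after 17-DMAG alone, and 0.978 and 1.37 after 17-DMAG with STV. The untreated tumors were once more below the other 8 tumors. H2-Ea-ps, the E alpha gene, annotated as a polymorphic pseudogene, was counted at 12.8 and 2.75 CPM in the glands and 0.346 to 2.59 CPM in the tumors.

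The genes of the H2-DM heterodimer differed from the class II chains and from each other. H2-DMa (chr17:34119541-34139101, plus strand) had 14.8 and 7.35 CPM in the glands, 3.55 to 5.87 in the primary untreated tumors, 4.79 to 5.86 in the primary STV tumors, 4.53 to 7.56 after 17-DMAG alone and 6.65 and 6.89 after 17-DMAG with STV, and the 3 larger tumor groups overlapped. H2-DMb1 (chr17:34153072-34160230, plus strand) had 19.9 and 7.74 CPM in the glands, 19.3, 16.9 and 22.7 in the primary untreated tumors, 18.8, 22.6 and 22.6 in the primary STV tumors, 14.1, 22.1 and 20.4 after 17-DMAG alone and 19.3 and 18.6 after 17-DMAG with STV. The tumors thus varied little in H2-DMb1, with a range of 0.68 on the log2 CPM scale, and its lowest tumor, 17-DMAG tumor 1, was among the highest for H2-Aa, H2-Ab1, H2-Eb1 and Cd74. H2-Aa counts were 1.43 to 8.26 times those of H2-DMb1 in the tumors and 13.3 and 16.2 times in the glands. The ratio of H2-DMb1 to its paralog H2-DMb2 was 1.69 to 2.23 in the tumors, 1.01 in gland 1 and 1.99 in gland 2.

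Ciita (chr16:10480059-10528418, plus strand), the transactivator, had 48.8 CPM in gland 1 and 9.81 CPM in gland 2. It had 11.9, 8.19 and 12.1 CPM in the primary untreated tumors, 13.5, 13.1 and 15.4 in the primary STV tumors, 12.8, 12.1 and 17.1 after 17-DMAG alone, and 12.7 and 16.2 after 17-DMAG with STV. Gland 2 thus lay inside the range of the tumors, and of the 8 tumors of the last 3 groups all but 1 exceeded the highest untreated tumor. Group means spanned 0.44 on the log2 CPM scale among the tumors, against 1.22 for H2-Aa and Cd74 and 1.25 for H2-Ab1.

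Of the dendritic cell genes, Flt3 encodes the receptor for the cytokine that sustains their precursors, Irf8 a transcription factor of cDC1, plasmacytoid dendritic cells and monocytes, and Zbtb46 a transcription factor of conventional dendritic cells that is also found in endothelium. Flt3 (chr5:147330741-147400489, minus strand) had 8.73 and 0.999 CPM in the glands, 0.319, 0.448 and 0.762 in the primary untreated tumors, 0.368, 0.653 and 0.211 in the primary STV tumors, 0.810, 0.737 and 0.714 after 17-DMAG alone and 0.352 and 0.530 after 17-DMAG with STV. Irf8 (chr8:120736358-120756694, plus strand) had 42.7 and 10.7 CPM in the glands, 8.06, 7.24 and 8.30 in the primary untreated tumors, 4.83, 6.66 and 7.87 in the primary STV tumors, 15.1, 7.33 and 7.18 after 17-DMAG alone and 12.5 and 7.44 after 17-DMAG with STV. The highest values of Irf8 among tumors, in 17-DMAG tumor 1 and 17-DMAG+STV tumor 1, were in the tumors with the highest sums of macrophage markers, 657 and 451 CPM against 187 to 303 in the others, and the part of macrophages was not tested. Zbtb46 (chr2:181387762-181459426, minus strand) had 11.8 and 5.89 CPM in the glands, 2.93, 3.77 and 3.79 in the primary untreated tumors, 4.03, 2.18 and 2.95 in the primary STV tumors, 6.0, 3.28 and 2.96 after 17-DMAG alone and 3.75 and 6.30 after 17-DMAG with STV. None of these 3 genes set the untreated tumors below the other tumors. The tumor groups overlapped for each, except that in Flt3 both the primary STV and the recurrent 17-DMAG+STV tumors lay below the recurrent 17-DMAG tumors.

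The comparison of primary untreated tumors with glands asks how the genes differ between cancer-free gland and untreated tumor. H2-Ab1, H2-Aa, H2-Eb1 and Cd74 fell, with log2 fold changes of −2.59 ± 0.39, −2.48 ± 0.49, −2.54 ± 0.45 and −2.52 ± 0.37 (± SE) and adjusted p of 0.0235, 0.0409, 0.0369 and 0.0232 in edgeR's quasi-likelihood test. These 4 of 10 members were called lower and none was called higher, while 2.11% of the 17135 genes tested were called in either direction. The other log2 fold changes were −1.28 for H2-DMa, −1.45 for Ciita, −3.25 for Flt3, −1.76 for Irf8, −1.34 for Zbtb46 and 0.50 for H2-DMb1, with adjusted p between 0.0592 and 0.372 in edgeR. In 8 of 10 members every untreated tumor lay below both glands, against 20.4% of all genes tested in that direction and 39.2% in either.

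This call rested on the whole set of libraries. Leaving out any 1 of the 3 primary untreated tumors, or fitting only the compared groups, took the 4 calls to 0, and scaling to library totals alone, which moved the median log2 fold change of all genes by 0.38, did the same. Leaving out STV tumor 1, STV tumor 3 or 17-DMAG tumor 3 left H2-Ab1 and Cd74 called. Without gland 1 the log2 fold changes of the 4 genes were −1.81 to −2.14 and that of H2-DMb1 was 1.38, whereas Ciita went from −1.45 to 0.16. Without gland 2, the log2 fold changes of Ciita, Flt3 and Irf8 lay below 0, as did those of the 4 genes.

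Averaged over the 4 tumor groups, 7 of 10 members were called lower than in the glands and none higher, with 10.4% of the 17135 genes called. H2-Ab1 fell by 1.70 ± 0.29, H2-Aa by 1.71 ± 0.36, H2-Eb1 by 1.89 ± 0.33 and Cd74 by 1.64 ± 0.28 on the log2 scale (± SE), with edgeR adjusted p of 0.00717, 0.0168, 0.00753 and 0.00692. The dendritic cell genes fell too, Flt3 by 3.24 ± 0.54, Irf8 by 1.67 ± 0.39 and Zbtb46 by 1.20 ± 0.34, with edgeR adjusted p of 0.00614, 0.0254 and 0.0481. H2-DMa (−0.96, edgeR adjusted p = 0.0507), Ciita (−1.15, 0.0794) and H2-DMb1 (0.50, 0.277) were not called. Every tumor lay below both glands for H2-Ab1, H2-Aa, H2-Eb1, Cd74 and Flt3, which is 5 of 10 members against 7.37% of all genes in that direction and 4.14% in the other.

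Gland 1 decided part of these calls. Without it the log2 fold changes were −1.25 for H2-Ab1, −1.42 for H2-Eb1 and −1.26 for Cd74. H2-Aa (−1.04), Flt3 (−0.92), Irf8 (−0.31) and Zbtb46 (−0.58) were then not called, and H2-DMb1 had a log2 fold change of 1.38. A gland left by itself was assumed to vary like the other groups. With library totals alone as the scale, 1 member, Flt3, was called.

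**Figure D2:**
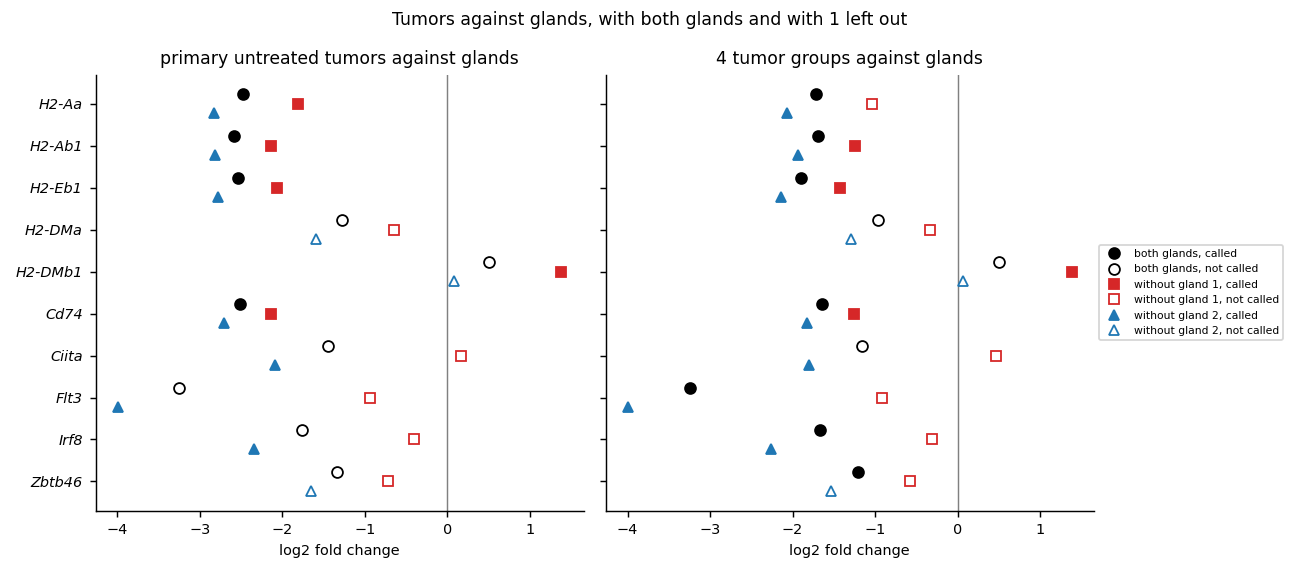
Log2 fold change (horizontal axis) of the 10 genes in primary untreated tumors (left) and in the mean of the 4 tumor groups (right) against the glands, with both glands (circles), without gland 1 (squares) and without gland 2 (triangles); filled symbols passed an adjusted p of 0.05. H2-Ab1, H2-Eb1 and Cd74 are filled in all 6 fits, and Ciita moves to the right of 0 without gland 1.

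The markers that separate both glands bear on these values. Gland 1 exceeded gland 2 by 8.73 against 0.999 CPM in Flt3, by 42.7 against 10.7 in Irf8 and by 48.8 against 9.81 in Ciita, beside the B cell sum of 291 against 5.92 CPM. Of 10 B cell markers, 7 were tested and 7 were called lower in the 4 tumor groups, where 10.4% of all genes were called in either direction. In the fit of the tumors alone, 6 B cell markers passed the low-count filter. A marker that entered only with the glands could be admitted by its high gland values, so its fall was not taken as support. T cell markers were called lower in 7 of 8, and 0 of 10 macrophage markers were called in either direction. Without gland 1 the median log2 fold change of the B cell markers tested went from −5.21 to −0.57 and that of the T cell markers from −3.17 to −0.05. Without gland 2 the medians were −6.46 and −3.98. Blk, Ms4a1 and Pax5 failed the low-count filter with both glands and entered the fit without gland 2. There gland 1 stood alone and could admit a gene by itself, so their falls in that fit were not taken as support. Macrophage markers summed to 497 and 342 CPM in the glands and 187 to 657 CPM in the tumors. Of the other marker lists, 3 of 5 plasma cell, 3 of 4 NK cell, 3 of 6 pan-leukocyte, 2 of 5 neutrophil, 5 of 5 adipocyte, 3 of 5 milk protein, 1 of 5 epithelial and 0 of 5 skeletal muscle genes were called lower. Only 3 plasma cell and 3 neutrophil markers passed the filter in the fit of the tumors alone, so the same limit holds for these lists. Without gland 1 the median log2 fold changes of these lists, in the same order, were −3.66, −2.52, −0.10, −0.86, −3.86, −5.73, 0.97 and −2.96. Without gland 2 they were −3.25, −2.72, −2.55, −2.44, −4.12, −1.32, 0.54 and 4.93. The part of these cell types in the differences was not tested. In bulk tissue, fewer cells of a type and less RNA per cell cannot be told apart.

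Other genes of the pathway were compared in the same fit. The median log2 fold change of the 18 class II pathway genes tested besides the members was −0.30 in the 4 tumor groups, against −0.02 over all genes. Of the 18, 5 were called lower and none higher, against 10.4% of all genes called in either direction. They were H2-Ea-ps (−2.66), H2-Oa (−4.18) and H2-Ob (−3.40), the subunits of the H2-DO modulator of H2-DM that is typical of B cells, and the costimulatory genes Cd86 (−1.48) and Cd40 (−2.34). H2-Ea-ps was the one also called in primary untreated tumors against glands (−3.67, edgeR adjusted p = 0.0404). None of these calls held without gland 1, where the log2 fold changes over the 4 tumor groups were −1.12 for H2-Ea-ps, 0.67 for H2-Oa, −0.18 for H2-Ob, −0.75 for Cd86 and −0.33 for Cd40, and the list's median was 0.28. Gland 2 lay inside the tumor range for H2-Oa (0.0714 against 0 to 0.392 CPM), H2-Ob (1.46 against 0.734 to 1.96 CPM), Cd40 (1.21 against 0.587 to 2.62 CPM) and Cd86 (4.78 against 1.35 to 6.53 CPM). Without gland 2 the list's median was −0.72, with 19 genes past the low-count filter in place of 18, since gland 1 alone could admit a gene there. The regulators Rfx5, Rfxank and Rfxap, which hold the X box complex together, had 33.9 to 43.5, 10.9 to 18.8 and 9.25 to 11.8 CPM in the tumors and 21.6 to 43.1, 8.49 to 11.1 and 10.0 to 11.03 CPM in the glands. They were not called in any comparison with all libraries, and their tumor ranges were narrow beside that of H2-Aa. Without gland 1, where gland 2 alone stood for the glands, the log2 fold changes of Rfx5, Creb1 and H2-DMb2, the paralog of H2-DMb1, lay above 0. Per kilobase of exon, H2-DMb2 had 2.23 CPM in gland 2, 11.3 in gland 1 and 4.23 to 7.14 in the tumors.

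Interferon gamma itself was at or near the floor, with 0 counts in both glands and at most 0.117 CPM in a tumor. Of 10 tested genes of its input and response, 2 were called lower in the 4 tumor groups than in the glands, against 10.4% of all genes. They were Ifngr1, a receptor chain (−1.84), and Cxcl9, a chemokine target (−2.50). Without gland 1 both had log2 fold changes below 0 and Ifngr2 had one above 0. Without gland 2 that of Cxcl9 lay below 0 and Ifngr1 was not called. Irf1, a transcription factor of this response, had 20.5 to 72.0 CPM in the tumors and was not called.

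Markers of dendritic cell types that were called against the glands were all lower in the tumors when both glands were used, and Ccr7, Naaa and Irf4 were also called in the primary untreated tumors (−5.66, −2.34 and −3.57). Over all genes tested, 10.4% were called in the 4 tumor groups and 2.11% in the primary untreated tumors, in either direction. The counts of these lists were not tested against that share. In the 4 tumor groups the cDC1 markers Wdfy4 (−2.12), Naaa (−2.01), Clec9a (−2.19) and Xcr1 (−2.27) were called lower, which is 4 of 9. The cDC2 list gave 1 of 5 tested, Irf4 (−3.81), which plasma cells and T cells also use, and the plasmacytoid list 2 of 10, Spib (−5.89) and Siglech (−2.63). In the fit of the tumors alone, 9 plasmacytoid markers passed the low-count filter. The shared and mature list gave 2 of 9, Ccr7 (−5.78), the receptor that guides mature cells to lymph nodes, and the chemokine Ccl22 (−4.65). Without gland 1 the log2 fold changes were −2.09 for Naaa and −3.40 for Irf4. Wdfy4 (−0.44), Clec9a (−1.37), Xcr1 (−0.46), Spib (−0.37), Siglech (−1.65), Ccr7 (−1.59) and Ccl22 (−1.46) were then not called. In that fit the log2 fold change lay above 0 for Snx22 of the cDC1 list and below 0 for Bst2 of the plasmacytoid list. Without gland 2, Naaa was not called, and Wdfy4, Clec9a, Xcr1, Irf4, Spib, Siglech, Ccr7 and Ccl22 had log2 fold changes below 0. Clec9a and Xcr1 were low in the tumors, at 0.665 to 2.89 and 0.156 to 1.18 CPM, and at least 2.93 and 0.714 CPM in the glands. Ccr7 and Ccl22 had 17.3 and 14.4 CPM as their higher gland values and 0.4995 and 0.856 as the lower.

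Among the tumors, the first comparison asks what STV in the drinking water changed in primary tumors. No member was called, as none of the 16870 genes was (0%). In edgeR 634 genes had an unadjusted p under 0.05, and DESeq2 called 17 genes and 0 members. Cd74 had a log2 fold change of 1.10 (95% interval 0.35 to 1.85), H2-Ab1 of 1.09 (0.32 to 1.86) and H2-Aa of 1.10 (0.17 to 2.03), with unadjusted p of 0.00846, 0.0109 and 0.0254 and an adjusted p of 1.00 in edgeR for each. H2-Eb1 had 0.81 (−0.09 to 1.71). Ciita, H2-Ab1, H2-Eb1 and Cd74 had all 3 STV tumors above all 3 untreated tumors, which is 4 of 10 members against 5% of all genes in that direction and 5.83% in the other. The estimates were smaller without STV tumor 2, at 0.61 for H2-Aa, 0.71 for Cd74 and 0.75 for H2-Ab1.

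The other members had smaller estimates under STV. H2-DMa (0.18), H2-DMb1 (0.11) and Ciita (0.37) had log2 fold changes whose 95% intervals ran from −0.41 to 0.83 in all, and Flt3 (−0.32), Irf8 (−0.30) and Zbtb46 (−0.21) lay below 0 with intervals of −1.48 to 0.84, −1.05 to 0.46 and −1.03 to 0.61. These intervals include changes of either sign. Of the macrophage markers 10 of 10 had log2 fold changes below 0, 0 were called, and their sums were 187 to 213 CPM in the STV and 223 to 246 CPM in the untreated tumors. Among all genes, 5.83% had every STV tumor below every untreated tumor, and 10.8% did not overlap in either direction. Of 6 B cell markers tested, 6 had log2 fold changes below 0, and their sums were 3.29 to 5.22 and 4.54 to 7.89 CPM. Markers of 1 cell type can vary together, so such counts of signs, here and below, were not read as separate results.

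The comparison of recurrent 17-DMAG with primary untreated tumors asks what differs between them in mice without STV. Relapse and continued 17-DMAG cannot be told apart in this comparison. It shares the untreated libraries with the STV comparison, so that the low untreated values enter both. No member and no gene of 16870 (0%) was called, 1635 genes had an unadjusted p under 0.05 in edgeR, and DESeq2 called 61 genes and 0 members. H2-Ab1 had a log2 fold change of 1.28 (95% interval 0.50 to 2.06), Cd74 of 1.22 (0.48 to 1.97), H2-Aa of 1.19 (0.26 to 2.12) and H2-Eb1 of 1.08 (0.18 to 1.98), with unadjusted p of 0.00460, 0.00470, 0.0178 and 0.0233 and an adjusted p of 0.509 in edgeR for each. The same 4 of 10 members had all 3 recurrent tumors above all 3 untreated tumors, against 7.65% of all genes in that direction and 7.45% in the other. Without 17-DMAG tumor 1 the estimates were 0.90 for H2-Ab1, 0.94 for Cd74, 0.84 for H2-Aa and 0.81 for H2-Eb1.

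The remaining members had log2 fold changes of 0.48 for H2-DMa, −0.08 for H2-DMb1, 0.37 for Ciita, 0.55 for Flt3, 0.31 for Irf8 and 0.21 for Zbtb46 in this comparison. Irf8 and Zbtb46 turned to −0.11 and −0.16 without 17-DMAG tumor 1. That tumor also had the highest sum of macrophage markers of all tumors, 657 CPM, while 17-DMAG tumors 2 and 3 had 227 and 254 CPM against 223 to 246 CPM in the untreated tumors. Macrophage markers had log2 fold changes above 0 in 9 of 10 and pan-leukocyte genes in 6 of 6, and 0 of them were called. In tumors 2 and 3, as in tumor 1, H2-Ab1, H2-Aa, H2-Eb1 and Cd74 lay above every untreated tumor. The part of macrophages in these differences was not tested.

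**Figure D3:**
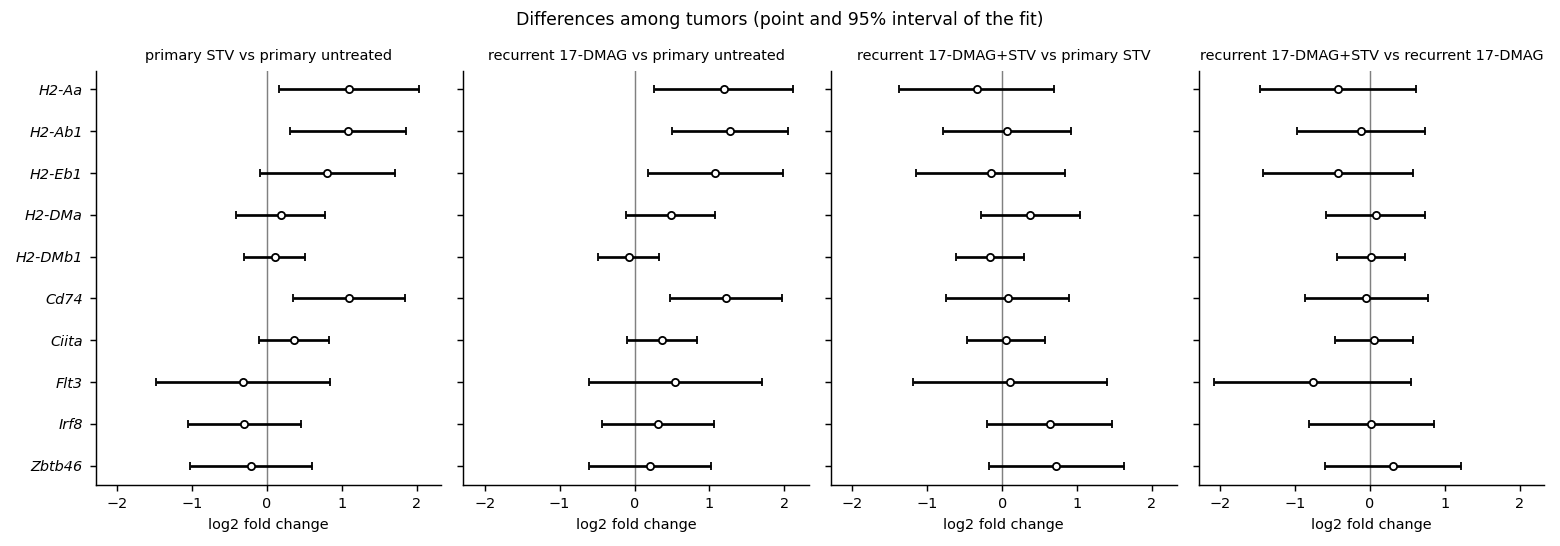
Log2 fold change (horizontal axis) of the 10 genes in 4 comparisons among tumors, with points for the edgeR estimate and bars for its 95% interval. The bars of H2-Aa, H2-Ab1 and Cd74 lie to the right of 0 in both comparisons with primary untreated tumors and span 0 in the other 2, and none passed the adjusted threshold.

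With STV in the water, recurrent 17-DMAG+STV tumors were compared with primary STV tumors. No member and no gene (0%) was called in edgeR, 1696 genes had an unadjusted p under 0.05 with 0 members among them, and DESeq2 called 331 genes and 0 members. Log2 fold changes were 0.07 for H2-Ab1 (95% interval −0.79 to 0.92), 0.08 for Cd74 (−0.75 to 0.90), −0.34 for H2-Aa (−1.37 to 0.70) and −0.15 for H2-Eb1 (−1.15 to 0.84). Zbtb46 had 0.72 (−0.18 to 1.63) and Irf8 0.63 (−0.20 to 1.47). These intervals leave room for changes of either sign. H2-DMa alone had both recurrent tumors above all STV tumors, against 17.4% of all genes in that direction and 35.3% in either. Macrophage markers had log2 fold changes above 0 in 9 of 10 here, 0 were called, and their sums were 451 and 303 CPM against 187 to 213.

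Recurrent tumors with and without STV were compared last. No member and no gene (0%) was called in edgeR, 1323 genes had an unadjusted p under 0.05 with 0 members among them, and DESeq2 called 277 genes and 0 members. Log2 fold changes were −0.05 for Cd74, −0.12 for H2-Ab1, −0.43 for H2-Aa and −0.42 for H2-Eb1, with 95% intervals that spanned −1.47 to 0.78 in all. Flt3 had −0.76 (−2.08 to 0.55), and both recurrent 17-DMAG+STV tumors lay below all 3 recurrent 17-DMAG tumors, as did 10.5% of all genes, while 21.5% did not overlap in either direction. With 10 to 38 counts of Flt3 per tumor, the depth limits this comparison.

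The interaction tests whether the difference of recurrent from primary tumors was itself different with and without STV, from 2 contrasts that share no library. No gene was called (0%), 1322 genes had an unadjusted p under 0.05 in edgeR, and DESeq2 called 189 genes and 0 members. The difference of the log2 fold changes was −1.53 ± 0.62 (SE) for H2-Aa, −1.21 ± 0.52 for H2-Ab1, −1.15 ± 0.50 for Cd74 and −1.23 ± 0.60 for H2-Eb1, with unadjusted p of 0.0357, 0.0428, 0.0452 and 0.0684 and adjusted p of 0.607 to 0.655 in edgeR. For the other 6 members it lay between −0.44 and 0.52. A difference between both arms was thus not shown for any member.

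Set side by side, the primary untreated tumors were the lowest group for H2-Aa, H2-Ab1, H2-Eb1, H2-DMa, Cd74 and Ciita. The median of the 8 other tumors was 2.34 times the untreated median for Cd74, 2.16 times for H2-Ab1, 2.14 times for H2-Aa and 1.605 times for H2-Eb1, 1.45 times for H2-DMa, 1.32 times for Flt3, 1.12 times for Ciita, 1.03 times for H2-DMb1, 0.933 times for Zbtb46 and 0.915 times for Irf8. This grouping was noticed in the values and has no test. How many of all genes set the untreated tumors below the 8 others was not counted, so whether these members are unusual in this cannot be said. As a share of all counts, H2-Aa, H2-Ab1, H2-Eb1 and Cd74 together took 0.00907% (95% Wilson interval 0.00880 to 0.00934) in the lowest untreated tumor and 0.0418% (0.0412 to 0.0424) in 17-DMAG tumor 1, the highest tumor. They took 0.0961% (0.0952 to 0.0970) in gland 1 and 0.0247% (0.0243 to 0.0251) in gland 2, whose share lay inside the range of the tumors. This share uses library totals without the TMM factor, which was 0.493 for gland 2, where milk protein genes summed to 537113 CPM. In CPM every tumor lay below both glands for each of these 4 genes. The Wilson intervals cover counting error only, since the reads carried no molecular identifiers and need not be independent.

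**Figure D4:**
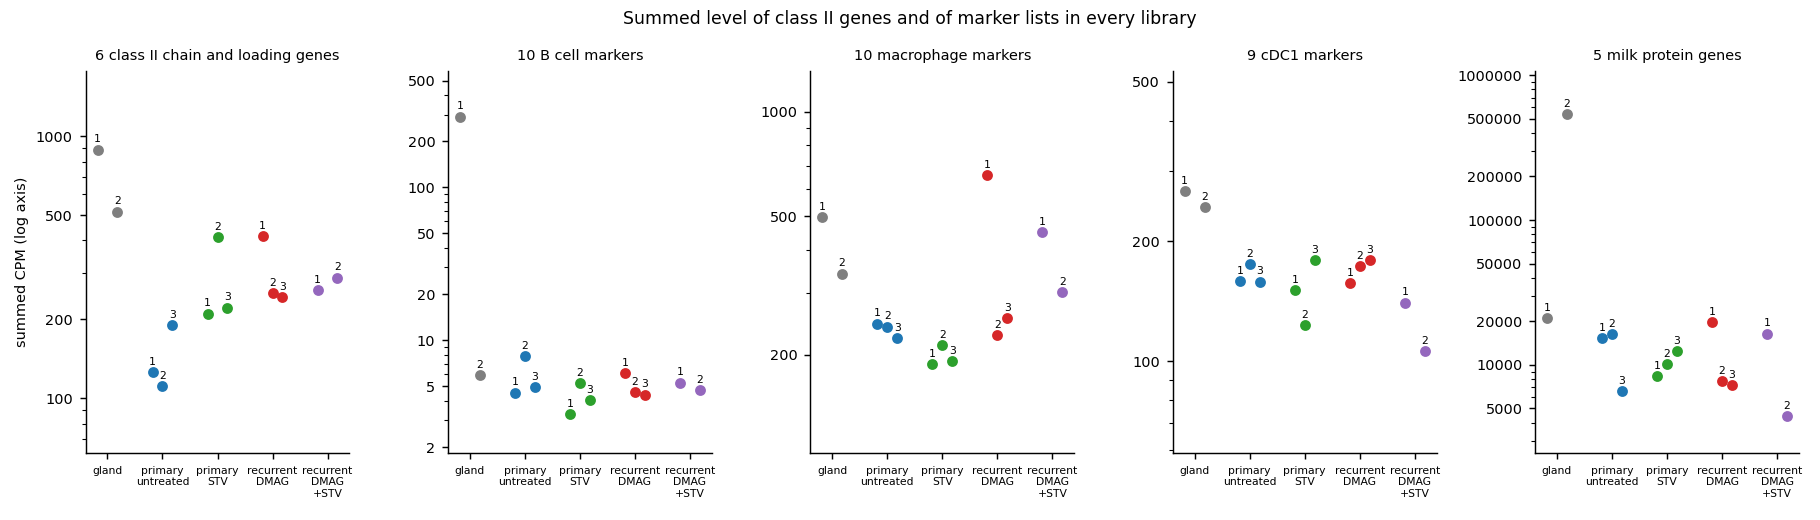
Summed CPM (vertical log axes) of the 6 class II chain and loading genes and of 4 marker lists in the 13 libraries by group (horizontal axis); points are libraries numbered by replicate. B cell markers are at 291 CPM in gland 1 and between 3.29 and 7.89 CPM in the tumors, and the highest macrophage sum among tumors, 657 CPM, is that of recurrent 17-DMAG tumor 1.

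None of the listed genes of the pathway or of dendritic cell types was called in a comparison among tumors. In recurrent 17-DMAG against primary untreated tumors, 13 of 18 other class II pathway genes, 10 of 10 interferon gamma genes and 9 of 9 shared and mature dendritic cell genes had log2 fold changes above 0, with medians of 0.33, 0.31 and 0.42 against −0.01 over all genes. The sums by tumor were less uniform. The class II pathway list had 685, 490 and 490 against 462, 467 and 505 CPM. The interferon gamma list had 668, 758 and 760 against 698, 442 and 744 CPM. The shared and mature list had 105, 35.7 and 32.3 against 33.4, 38.1 and 32.7 CPM, so that 17-DMAG tumor 1 alone stood out. H2-Ea-ps had the lowest unadjusted p of the class II pathway genes there, with a log2 fold change of 1.56 ± 0.53 (SE, edgeR adjusted p = 0.509). Under STV in primary tumors the medians of the same lists were 0.02, 0.19 and −0.47. In recurrent 17-DMAG+STV against recurrent 17-DMAG tumors, 9 of 9 cDC1 markers lay below 0 with a median of −1.15. Clec9a had 0.665 and 0.734 CPM in the former and 0.849 to 2.89 in the latter. Every value of the former was lower in 10.5% of all genes, and 21.5% did not overlap in either direction. Itgax, the integrin CD11c of dendritic cells and many macrophages, had 20.7 and 24.2 CPM in the recurrent 17-DMAG+STV tumors against 5.30 to 11.9 in the primary STV tumors (log2 fold change 1.30 ± 0.40, edgeR adjusted p = 0.365). Between these groups, 17.4% of all genes lay wholly higher in the recurrent tumors and 35.3% did not overlap in either direction.

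Over the 11 tumors the class II chains and Cd74 varied together. Pearson's r of log2 CPM was 0.99 between H2-Ab1 and Cd74, 0.96 between H2-Aa and Cd74, 0.95 between H2-Aa and H2-Ab1 and 0.86 between H2-Ab1 and H2-Eb1. After subtraction of the group means, r was 0.96, 0.99, 0.95 and 0.70 for these pairs, so that libraries of the same group differed together too. With H2-Aa, r was 0.54 for H2-DMa, 0.49 for Ciita, 0.52 for Flt3, 0.26 for Irf8, 0.10 for Zbtb46 and −0.01 for H2-DMb1. The transactivator's r with H2-Aa was 0.04 after subtraction of group means, and H2-Aa counts ranged from 2.41 to 9.16 times those of Ciita. These values describe 11 libraries in 4 groups and carry no test.

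**Figure D5:**
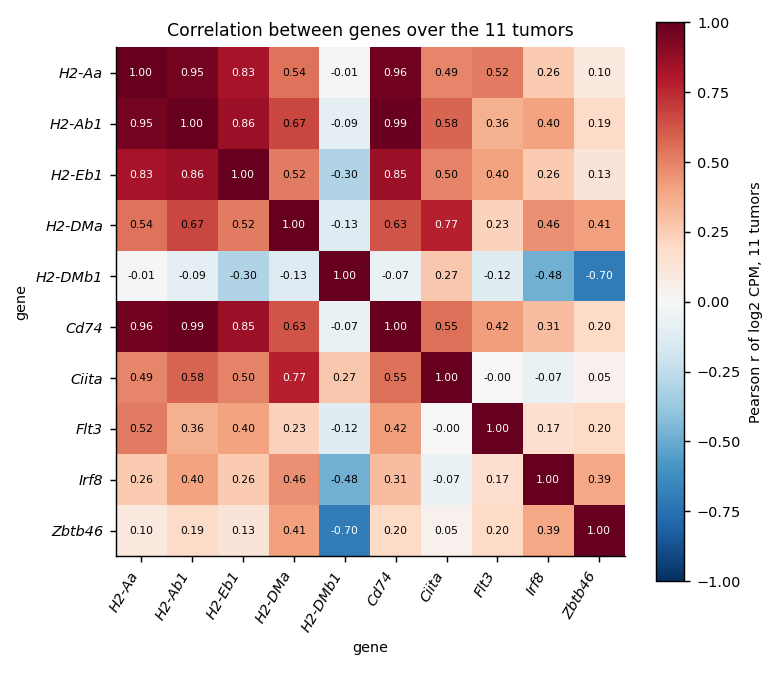
Pearson's r of log2 CPM over the 11 tumors between each pair of the 10 genes (both axes list the genes; colour and printed value give r). H2-Aa, H2-Ab1, H2-Eb1 and Cd74 form a block of 0.83 to 0.99, and H2-DMb1 reaches −0.70 with Zbtb46.

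Among leukocyte genes, Ptprc, the CD45 antigen of all leukocytes, had r of 0.73 with Cd74, Itgax 0.66, and the macrophage genes Csf1r and C1qa 0.60 and 0.54. Cd79a of B cells had 0.17 and Cd3e of T cells −0.18. Ctss, the protease that degrades the invariant chain, had 0.78. Irf8 followed other genes, with r of 0.87 for Adgre1, 0.86 for C1qa and 0.83 for Ptprc, values that were 0.54, 0.35 and 0.33 without the 2 tumors farthest from its median. Zbtb46 had 0.65 with C1qa. The dendritic cell genes had low r with each other, at 0.17 for Flt3 and Irf8, 0.20 for Flt3 and Zbtb46 and 0.39 for Irf8 and Zbtb46. All points share a library's depth and tissue mixture.

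Of 12684 other genes whose mean log2 CPM reached 1, those whose profile over the 11 tumors was most like the mean of the 6 class II chain and loading members were Tyw5 (Pearson's r 0.98), Sept2 (0.92), Mark1 (0.90), Tprkb (0.90) and Tmem51 (0.89). Tyw5 spanned only 6.64 to 9.79 CPM. For Irf8 they were Plxnc1 (0.97), Cd84 (0.96), a leukocyte receptor, and Uap1l1 (0.95), and for Zbtb46 Atg16l1 (0.94), Senp5 (0.94) and Praf2 (0.94). For Ciita they included E2f2 (0.90) and Asap3 (0.90), and for Flt3 they were Impact (0.82), Sec61a2 (0.79) and Gm15694 (0.74). These genes were picked from many by their r, which is a description with no test.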

How the data were processed

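Total RNA depleted of ribosomal RNA was sequenced from 11 mammary tumors and 2 cancer-free glands. The authors used STAR for alignment to the mouse genome (mm10, GRCm38) and featureCounts for counting by gene (Subread 1.6.2, after bcl2fastq 2.20, per the labels), and the deposited values are raw read counts, one column per library. The kit marks strand, but the strand setting of the counting was not stated. Groups came from the sample titles.

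Here counts were tested in R 4.3.3 with edgeR 4.0.16 (filterByExpr, TMM, robust quasi-likelihood, group means without a block) on all 13 libraries for the glands (17135 genes) and on 11 tumors otherwise (16870 genes). A gene was called at a Benjamini-Hochberg adjusted p under 0.05 over all genes tested, two-sided. Standard errors are the log2 fold change over the root of F. Log2 CPM used a prior count of 2. Positions and exon lengths came from GENCODE (GRCm38), promoters from RefSeq. DESeq2 1.42.0, other scalings, no filter, a replicate block, compared groups only and leaving out each library were tried. The scripts were tested on simulated data. Named were the 10 members, called genes of 20 lists of markers and pathway genes, their abundant markers, and the genes most like a member. The members and lists were chosen with earlier results of these data known, and the promoter letters after the sequences were read. Each library held at least 39921388 counts. Some genes that this rule would name are not reported here.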

Additional observations from a re-analysis of the deposited data

How the results depend on the processing

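Against the glands, 4 members and 361 genes were called in primary untreated tumors. These became 0 and 19 (0 higher and 19 lower, against 48 and 313) with library totals alone, 9 and 2352 with DESeq2, and 0 and 0 with the compared groups only. Leaving out 1 library gave 0 to 7 members and 0 to 3381 genes. Averaged over the 4 tumor groups, 7 members and 1785 genes (275 higher, 1510 lower) became 1 and 489 (8 higher, 481 lower) with library totals alone, and genes became 3242 with DESeq2. Leaving out 1 library gave 4 to 8 members and 535 to 4255 genes. Without gland 1 the higher and lower calls were 1786 and 1595 in primary untreated tumors and 2076 and 2179 in the 4 tumor groups, so that the excess of lower calls turned in the former and shrank in the latter. Without gland 2 they were 4 and 253, and 12 and 523. RLE factors and no filter on low counts stayed within 1.5 times of the totals of members and genes, and no filter gave 28 higher and 227 lower in primary untreated tumors. Leaving out each gland for the gene lists was chosen after seeing the data. Ciita ran from −2.09 to 0.16 in primary untreated tumors and from −1.80 to 0.46 in the 4 tumor groups when 1 library was left out. Among tumors 0 members were called under every alternative run, while genes called rose from 0 to 17, 61, 331, 277 and 189 with DESeq2 (STV in primary tumors, recurrence without STV, recurrence with STV, STV in recurrent tumors, interaction), and to 2 for recurrence with STV with the compared groups only. Leaving out 1 library gave 0 to 1 gene for recurrence without STV, 0 to 100 for recurrence with STV, 0 to 141 for STV in recurrent tumors and 0 to 77 for the interaction. That fit of compared groups could not be made separately for the 4 tumor groups and the interaction, which use all groups.

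Same-numbered libraries are not stated to share a mouse, day or batch. Over 15 pairs of tumors with the same number the median correlation of deviations from group means was −0.05 (−0.29 to 0.22), against 0.03 over 30 pairs with different numbers, and 2 of 11 tumors correlated best with their own number, so the numbers were not taken to pair the samples. With the replicate number as a block, 0 members and 4 genes were called in primary untreated tumors against glands and 2 members (H2-Ab1 and Cd74) and 371 genes in the 4 tumor groups. The block left 0 members called among tumors and gave H2-DMa 0.035 in place of −0.11 in the interaction.

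Of members not called, several log2 fold changes near 0 turned sign when 1 library was left out. These ran for STV in primary tumors from −0.81 to 0.084 (Flt3). For recurrence without STV they ran from −0.17 to 0.12 (H2-DMb1), −0.11 to 0.52 (Irf8) and −0.16 to 0.39 (Zbtb46). For recurrence with STV they ran from −0.56 to 0.15 (H2-Aa), −0.12 to 0.41 (H2-Ab1), −0.42 to 0.19 (H2-Eb1), −0.10 to 0.47 (Cd74), −0.14 to 0.21 (Ciita) and −0.22 to 0.60 (Flt3). For STV in recurrent tumors they ran from −0.30 to 0.27 (H2-Ab1), −0.14 to 0.21 (H2-DMa), −0.16 to 0.13 (H2-DMb1), −0.19 to 0.26 (Cd74), −0.14 to 0.23 (Ciita), −0.42 to 0.46 (Irf8) and −0.12 to 0.69 (Zbtb46), and library totals alone gave −0.00669 for H2-DMb1 and −0.00277 for Irf8 and the compared groups only −0.00188 for H2-DMb1. For the interaction they ran from −0.35 to 0.026 (H2-DMa), −0.85 to 0.035 (Flt3) and −0.14 to 0.74 (Irf8). The cause of these changes was not tested. Groups of 2 and 3 libraries limit every comparison, and the counts of Flt3 and H2-Eb1 limit those genes.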
